A study of Homo sapiens with 5 samples.

Results

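The MAX network is a set of transcription factors that pair through a basic helix-loop-helix leucine zipper, and 10 of its genes are described here in COLO 320DM cells treated with siRNA. The 10 are the MYC paralogs MYCN and MYCL, the shared partner MAX, the MAX-binding repressors MXD1, MXD3, MXD4, MXI1 and MNT, and MLX with its partner MLXIP. They were chosen by symbol from the 60651 genes in the count tables, where each symbol matched 1 gene identifier. All 10 passed the filter on low counts, as did 16341 genes in all. COLO 320DM is an established human line from a colorectal adenocarcinoma, and its MYC locus is amplified. Poly(A) RNA was sequenced in 5 libraries, 1 for each siRNA duplex. The siIDT, sino4 and siSMPLT libraries form the USP17 siRNA group (n = 3), taken as targeting the deubiquitinase USP17 by elimination, since siNT and L2 are the non-silencing controls in the series description. The siL2 and siNT libraries form the control siRNA group (n = 2). Each duplex had 1 library and no untransfected cells were analysed here. Nothing in the labels says that the libraries came from separate cultures, so the p-values reflect the spread among 5 libraries that may be technical. Since each library has its own duplex, differences between duplexes are part of that spread and cannot be told apart from it.

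MAX pairs with MYC, MYCN or MYCL, and these dimers bind the E-box CACGTG and activate transcription. MAX also pairs with MXD proteins and MNT, which recruit the SIN3 corepressor to the same sites and so oppose MYC. MLX is a second hub: it pairs with MXD1, MXD4 and MNT, and with MLXIP (MondoA), a sensor of glucose phosphates. In colorectal cancer MYC is a classical target of beta-catenin, the protein that the series links to USP17.

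Short sequences frame the comparisons that follow. Earlier results of these libraries had picked out 7-base stretches of 3' UTRs whose carriers were lower, ATCACTC and TCACTCA in the USP17 siRNA libraries and GATCATC in siL2. Each was looked up on the transcript's strand in the longest annotated 3' UTR of each network gene (GENCODE 29, GRCh38). ATCACTC occurs in 0 of the 10, against 8.06% of the 12473 tested genes with a 3' UTR. TCACTCA occurs in MLXIP alone and GATCATC in MXI1 alone, against 12.4% and 6.4% of those genes. TCACTCA and ATCACTC share the bases TCACTC. Both sites are shown 5′ to 3′ with 10 bases on each side, and the capitals mark the 7-base stretch.
MXI1, chr10:110285590-110285616, plus strand: ttttgaaaggGATCATCatgcagctca
MLXIP, chr12:122142024-122142050, plus strand: gtgaactctcTCACTCAgtgacctcag
The site begins at base 613 of the 2378 bases of the MXI1 3' UTR, and at base 222 of 5535 in MLXIP. The MXI1 site is shown because MXI1 was lowest in siL2, the library in which carriers of GATCATC had been found low.

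The network's own binding site was looked up in the network's promoters, since MAX dimers can bind their own genes. RefSeq lists 13 starts for the 10 genes (GRCh38.p14), and the 300 bases from 250 before to 50 after each were searched. CACGTG, which reads the same on both strands, occurs in 3 of the 13, in MXD4, MNT and MLX, against 7.26% of all 35116 promoters. The variant CACGCG, searched on both strands, occurs in 2 of the 13, in MXD3 and at the third start of MXI1, against 11.4% of all promoters. The E-boxes are given on each gene's own strand with 12 bases on each side and the 6-base motif in capitals.
MXD4, chr4:2262330-2262359, minus strand: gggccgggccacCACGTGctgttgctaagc
MNT, chr17:2401236-2401265, minus strand: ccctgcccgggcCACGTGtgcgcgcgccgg
MLX, chr17:42567038-42567067, plus strand: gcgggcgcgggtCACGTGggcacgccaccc
A match is a description of these letters and not a measured binding site. These 3 genes had overlapping groups and small differences, as given with their values.

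Reads in genes numbered 31704821 to 36276143 per library, and a gene with 0 reads could hold up to 3, which is 0.0827 to 0.0946 CPM (reads scaled to library size), for counting error only. The knockdown could not be measured: the 30 genes of the USP17L family, which encode USP17, had 0 reads on their own strand in all 5 libraries. Of 9 colon epithelial markers, CDX2 stood at 1631 to 2098 CPM and KRT8 at 62.3 to 76.8 CPM, while EPCAM was at 1.96 to 2.75 CPM. CDX1 had at most 3 reads in any library, CDH1 had 1 to 6 and VIL1 had 3 to 7. CDX1, CDH1 and VIL1 were too low to be tested. The summed level of the 9 was 1811 to 1870 CPM with USP17 siRNA and 2192 to 2270 CPM in the controls, most of it from CDX2, which fell (log2 fold change -0.31, adjusted p 0.0162, edgeR). CDH17 went the other way, from 27.2 to 49.9 CPM (0.88, adjusted p 0.00285, edgeR), and KRT20 was at 0.77 (adjusted p 0.174, edgeR). In all 2 of the 6 epithelial markers tested passed, 1 in each direction. Of 4 leukocyte markers CD3E and CD68 had at most 3 reads, and PTPRC stood at 41.7 to 51.7 CPM. Neuroendocrine markers summed to 1.72 to 3.79 CPM and endothelial ones to 0.0612 to 0.321 CPM. The 4 fibroblast markers summed to 20.1 to 29.1 CPM, from COL1A1 and PDGFRB, while COL1A2 and DCN had at most 3 reads. The part of these shifts in the results was not tested.

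In TPM, RSEM's length-scaled transcript level, which allows comparison between genes, MYC made up 89.2% to 90.8% of the network's mRNA in each library, counting the 10 genes with MYC, MGA and MLXIPL. MYC stood at 2491 to 3162 TPM. Among the 10, MXI1 was the most abundant with a mean of 70.4 ± 16.7 TPM (SD, n = 5). MAX followed at 50.4 ± 6.59, MLX at 48.8 ± 0.964 and MXD4 at 47.2 ± 2.33 TPM (SD, n = 5 each). Within these 4, neighbouring ranges overlapped, so their order is not settled by these libraries, while MXD4 lay above the next gene, MLXIP, in 5 of 5 libraries. MLXIP had 22.9 ± 2.62 TPM, MXD3 12.6 ± 4.41 and MNT 12.1 ± 1.07 TPM (SD, n = 5 each), and MXD3 and MNT overlapped. MXD1 had 6.84 ± 0.827 TPM, MYCN 3.48 ± 0.793 and MYCL 2.22 ± 0.518 TPM (SD, n = 5 each). MYCN lay above MYCL in 5 of 5 libraries, although their ranges over libraries overlapped. MYC mRNA was 45.7 to 59.3 times that of MAX and 401 to 559 times that of MYCN and MYCL together. The network thus held a single MYC gene at high level, with MAX near the levels of MLX and MXD4.

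**Figure D1:**
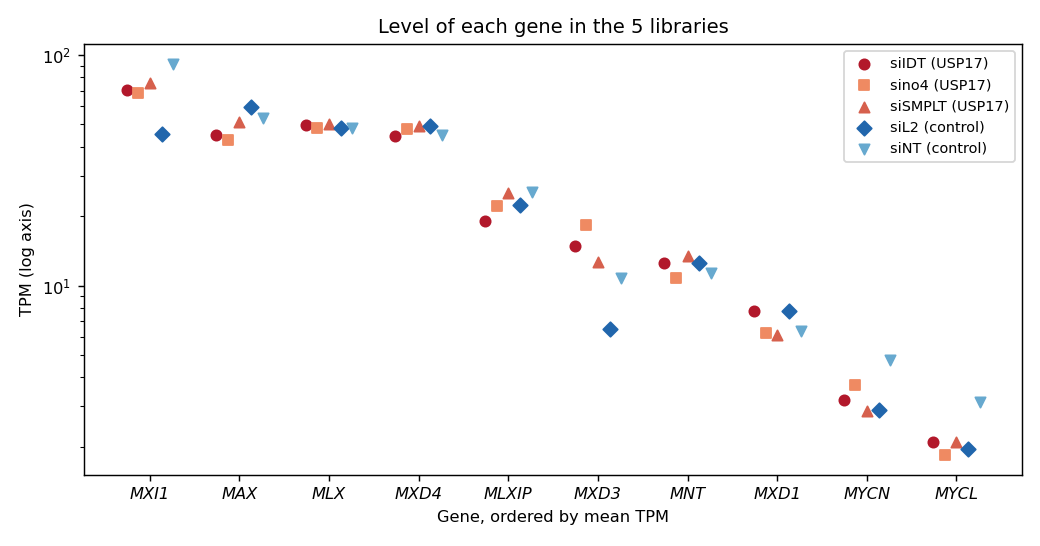
TPM of the 10 genes in each of the 5 libraries on a log axis, with genes ordered by their mean. MXI1, MAX, MLX and MXD4 lie together at the top, siL2 lies apart for MXI1 (45.4 TPM) and MXD3 (6.5 TPM), and siNT lies highest for MYCN (4.76 TPM) and MYCL (3.13 TPM).

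None of the 10 genes reached the threshold of edgeR's quasi-likelihood test (adjusted p 0.05) for USP17 siRNA over control siRNA, while 10.5% of all tested genes did, 4.64% as higher and 5.82% as lower. At an unadjusted p under 0.05 in edgeR's test there were 2, MXD3 and MAX. The share of all tested genes at that cut was not counted, but is no less than the 18.8% with an adjusted p under 0.10. DESeq2's Wald test called the same 2, MXD3 higher and MAX lower, where it called 17% of the 13806 genes given an adjusted p. Both also had an adjusted p under 0.10 in edgeR's test, as did 18.8% of tested genes. The median log2 fold change of the 10 was -0.05, against 0.01 over all tested genes, and 3 were positive and 7 negative. Groups did not overlap in CPM for MXD3 (higher) and MAX (lower), or 2 of 10, while 45.9% of all tested genes had groups apart, 23.3% higher and 22.6% lower. In TPM the same 2 genes had groups apart, against 43.1% of tested genes. For MYCN, MXD1, MXD4, MXI1 and MLX, 5 of 10, all 3 USP17 siRNA libraries lay between the controls in CPM, against 11.7% of tested genes. In these bulk libraries, fewer cells expressing a gene and less of its RNA per cell cannot be told apart.

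MAX, the obligatory partner of MYC, measured 56.7, 56.8 and 62.2 CPM in siIDT, sino4 and siSMPLT, and 77.2 and 67.1 CPM in siL2 and siNT. Each USP17 siRNA library lay below both controls, and siSMPLT lay nearest to siNT. The means were 58.6 ± 3.13 CPM (SD, n = 3) and 72.1 ± 7.19 CPM (SD, n = 2). The log2 fold change was -0.30 ± 0.09 (SE), with a 95% interval of -0.51 to -0.09 (adjusted p 0.0704, edgeR). With siL2 as the lone control, that is without siNT, it was -0.40 and passed (adjusted p 0.019, edgeR), while without siL2 it was -0.20 (adjusted p 0.174, edgeR). DESeq2's Wald test gave an adjusted p of 0.0364. Over the 12 alternatives tried, the adjusted p ran from 0.019 to 0.255. The MAX gene lies on chromosome 14 from 65006174 to 65102695, minus strand (GRCh38). It overlaps FNTB on the other strand, and 10.1% to 13.1% of the reads on MAX from both strands lay on the opposite one and were not counted. Relative to MAX, MYC mRNA stood at 56.0, 58.1 and 50.5 in siIDT, sino4 and siSMPLT, and at 45.7 and 59.3 in siL2 and siNT, so this ratio of TPM values overlapped between the groups.

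Among the repressors, MXD3, which is best known from proliferating cells, had the largest log2 fold change of the 10. It measured 11.0, 13.4 and 10.8 CPM in siIDT, sino4 and siSMPLT, and 5.95 and 8.83 CPM in siL2 and siNT. All 3 USP17 siRNA libraries lay above both controls, and siL2 was lowest. The means were 11.7 ± 1.44 CPM (SD, n = 3) and 7.39 ± 2.04 CPM (SD, n = 2). The log2 fold change was 0.66 ± 0.18 (SE), a 1.58-fold difference, with a 95% interval of 0.24 to 1.08 (adjusted p 0.0548, edgeR). Without siNT it was 0.98 (adjusted p 0.00828, edgeR) and without siL2 0.41 (adjusted p 0.115, edgeR). DESeq2's Wald test called it (adjusted p 0.0116), and the adjusted p ran from 0.00828 to 0.2 over the 12 alternatives. The direction was the same in each of the 12 for MXD3 and for MAX.

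The MXD3 gene spans chromosome 5 from 177301461 to 177312757, minus strand (GRCh38), and rests on 204 to 432 reads per library. It overlaps PRELID1 on the opposite strand over 3186 bases, and 73.2% to 86.7% of the reads on MXD3 from both strands lay on that strand. MXD3 also overlaps RAB24 on the same strand over 2284 bases, where strand cannot separate the genes. RAB24 had 105, 126 and 128 reads in siIDT, sino4 and siSMPLT and 136 and 166 in siL2 and siNT. PRELID1 itself had 1717, 1923 and 1863 reads in siIDT, sino4 and siSMPLT and 2287 and 2499 in siL2 and siNT, with a log2 fold change of -0.28 that was not past the threshold (adjusted p 0.0749, edgeR). MXD3 and PRELID1 thus lay on opposite sides of 0. With RSEM's expected counts MXD3 had a log2 fold change of 0.66 (adjusted p 0.0674, edgeR).

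MXI1, a repressor that competes with MYC for MAX, differed more between the controls than between the groups. The gene spans chromosome 10 from 110207605 to 110287365, plus strand (GRCh38). It measured 114.7, 108.7 and 117.3 CPM in siIDT, sino4 and siSMPLT, 69.8 CPM in siL2 and 142.6 CPM in siNT. The USP17 siRNA libraries lay close together, with siL2 far below and siNT above them. The group means were 113.6 ± 4.42 CPM (SD, n = 3) and 106.2 ± 51.5 CPM (SD, n = 2), with a log2 fold change of 0.10 ± 0.24 (SE) and a 95% interval of -0.45 to 0.64 (adjusted p 0.827, edgeR). With siL2 as the lone control MXI1 passed as higher with USP17 siRNA, at 0.70 (adjusted p 0.0021, edgeR). With siNT as the lone control it passed as lower, at -0.33 (adjusted p 0.0254, edgeR). These lone-control fits called 15.5% and 14.4% of all genes, and they take the spread of the lone control to be that of the USP17 siRNA libraries. The sign for MXI1 thus differed with the control used.

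The 2 controls were 2.04-fold apart for MXI1, where 4.89% of tested genes were at least 2-fold apart. The 3 USP17 siRNA libraries lay between controls at least 2-fold apart in 1.83% of tested genes. The 95% Poisson counting intervals, 67.1 to 72.7 CPM in siL2 and 138.7 to 146.6 CPM in siNT, were far from touching. Each of the other 4 libraries was at least 1.56-fold above siL2. Genes with siL2 at least 1.5-fold below each other library made up 8.4% of the 798 carriers of GATCATC, the stretch shown above for MXI1, and 1.77% of all 12473 genes searched. That stretch had been picked for the low level of its carriers in siL2, so the first share is no independent support, and whether it has a part in the MXI1 level was not tested. RSEM's transcript length of MXI1, a mean over its isoforms weighted by abundance, was 2287, 2178 and 2155 bases with USP17 siRNA and 2110 and 2132 bases in siL2 and siNT. MXI1 was the single gene of the 10 whose lengths did not overlap between the groups, while 19% of tested genes had lengths apart.

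The paralogs MYCN and MYCL were low and highest in siNT. MYCN, the driver of neuroblastoma when amplified, measured 4.65, 5.33 and 4.50 CPM in siIDT, sino4 and siSMPLT and 4.12 and 6.96 CPM in siL2 and siNT. MYCL, first found amplified in small cell lung cancer, measured 4.16, 3.65 and 4.13 CPM against 4.06 and 6.37 CPM. For both genes siL2 lay close to the USP17 siRNA libraries, and the groups overlapped. The log2 fold changes were -0.20 ± 0.22 for MYCN (95% interval -0.70 to 0.30) and -0.39 ± 0.20 for MYCL (-0.85 to 0.07), with SE. Adjusted p-values were 0.595 and 0.244 in edgeR's test. With siNT as the lone control MYCL passed as lower, at -0.68 (adjusted p 0.0237, edgeR), and MYCN was at -0.53 (adjusted p 0.0534, edgeR). With siL2 alone MYCL was at -0.03 and MYCN turned to 0.23. In all, 3 of the 10 genes (MYCN, MYCL and MXI1, each higher in siNT) were at least 1.5-fold apart between the controls, against 14.3% of tested genes. MYCN lies on chromosome 2 from 15940564 to 15947007 and MYCL on chromosome 1 from 39895426 to 39902256 (GRCh38). Reads were few, 141 to 246 per library for MYCN and 118 to 225 for MYCL.

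**Figure D2:**
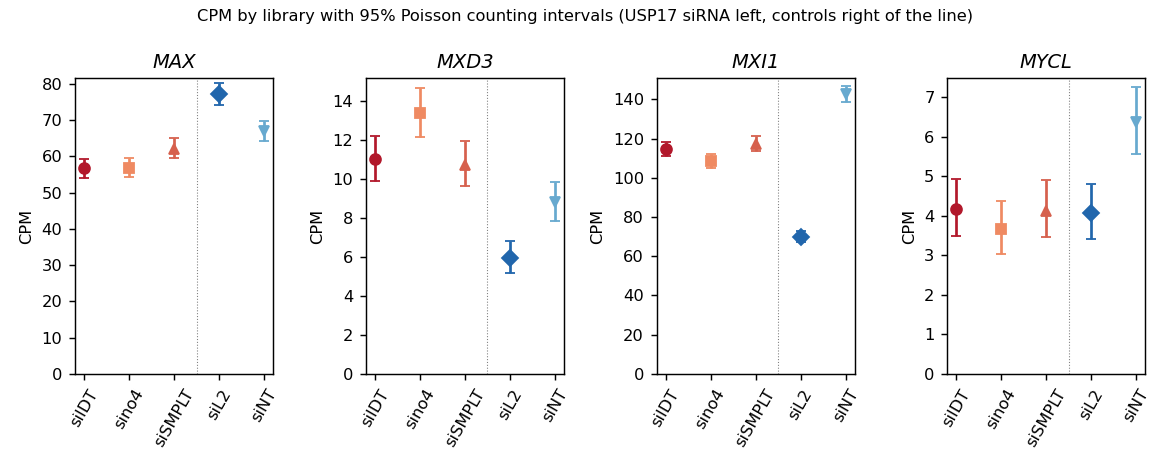
CPM of MAX, MXD3, MXI1 and MYCL by library with 95% Poisson counting intervals, which cover counting error only. The USP17 siRNA libraries lie below both controls for MAX and above both for MXD3, between 69.8 CPM in siL2 and 142.6 CPM in siNT for MXI1, and level with siL2 but below siNT for MYCL.

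Of the other repressors, MXD4 stood at 68.2, 73.2 and 70.3 CPM with USP17 siRNA, between 83.0 CPM in siL2 and 64.9 CPM in siNT. Its log2 fold change was -0.07 (95% interval -0.31 to 0.18), and it turned to 0.12 without siL2. MXD1, induced in many cells as they differentiate, measured 25.5, 23.4 and 23.1 CPM against 27.2 and 20.3 CPM in siL2 and siNT, again between the controls, with 0.02 (-0.28 to 0.31). It turned to -0.18 without siNT and to -0.03 without siIDT. The MXD1 gene overlaps SNRNP27 on the same strand over 7888 bases, where strand cannot separate the genes. MNT, the broadly expressed antagonist of MYC, measured 31.0, 31.3 and 35.5 CPM against 33.3 and 33.4 CPM, or -0.03 (-0.25 to 0.18). For MXD1 and MXD4 siL2 was the higher control, the reverse of MXI1, while MNT was level in both. Adjusted p-values of these 3 were 0.728 or above in edgeR's test, which does not show that they were unchanged. The TPM of MXD1, MXD3, MXD4 and MXI1 together was 138.1, 140.6 and 143.6 with USP17 siRNA, 109.0 in siL2 and 153.8 in siNT. MXI1 made up 48.6% to 52.5% of that sum with USP17 siRNA, 41.7% in siL2 and 59.6% in siNT. Set against MAX, the sum was 2.81 to 3.28 times its TPM with USP17 siRNA, 1.84 times in siL2 and 2.88 times in siNT.

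MLX and MLXIP, the sugar-sensing arm, did not pass, which does not show that they were unchanged. MLX was near level, while MLXIP varied more among the libraries. MLX measured 67.9, 69.3 and 69.3 CPM with USP17 siRNA and 67.7 and 70.3 CPM in siL2 and siNT, the narrowest spread of the 10. Its log2 fold change was -0.004 with a 95% interval of -0.17 to 0.16 (adjusted p 0.978, edgeR). MLXIP, which encodes MondoA, measured 94.5, 114.3 and 126.6 CPM in siIDT, sino4 and siSMPLT and 113.8 and 128.0 CPM in siL2 and siNT. The siIDT library was lowest and the groups overlapped, with a log2 fold change of -0.11 (-0.39 to 0.16; adjusted p 0.586, edgeR). MLXIP is the single carrier of TCACTCA among the 10. MLXIPL (ChREBP), the related partner of MLX, had a median of 3.68 TPM, and MLXIP mRNA was 5.17 to 7.34 times as abundant.

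**Figure D3:**
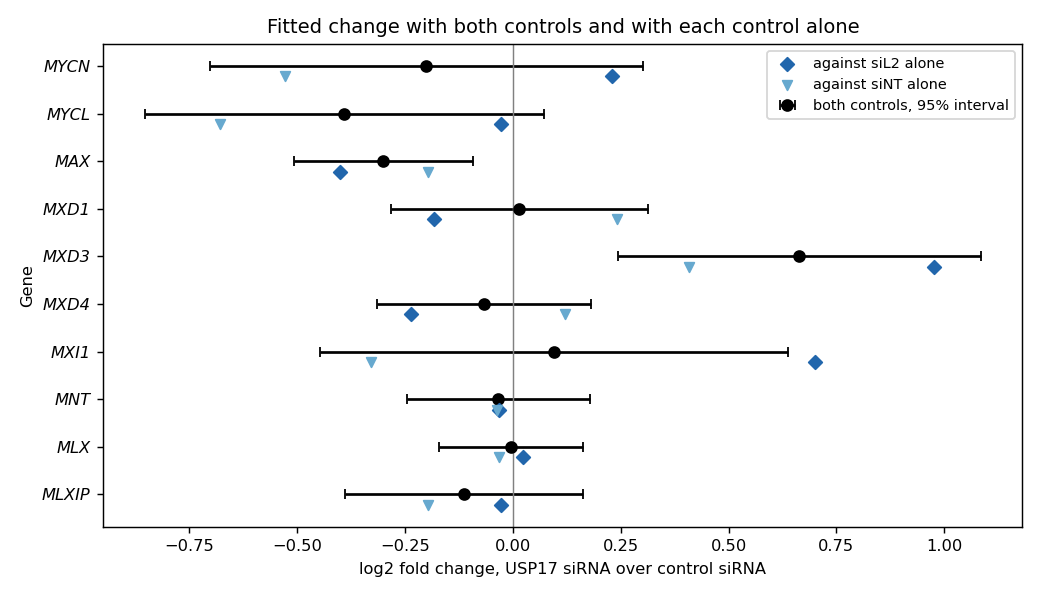
Log2 fold change of each gene, USP17 siRNA over control siRNA, with both controls (black, unadjusted 95% interval) and with siL2 or siNT as the lone control. The lone-control values lie on opposite sides of 0 for MYCN, MXD1, MXD4, MXI1 and MLX, and on the same side for MYCL, MAX, MXD3, MNT and MLXIP.

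The expression profile most like that of MXD3 over the 5 libraries, by root mean square difference of mean-centred log2 CPM among 12090 genes, was that of PITPNM2 (0.05), then CD58 (0.06) and DSTNP2 (0.08). PITPNM2 had a log2 fold change of 0.72 and passed (adjusted p 0.0312, edgeR), but lost its call without any 1 of siIDT, sino4, siSMPLT or siL2. CD58 (0.65) and DSTNP2 (0.60) did not pass. Nearest to MAX were PCGF1 (0.0176), SNAPC2 (0.0181) and LZTS3 (0.0245), with log2 fold changes of -0.32, -0.31 and -0.31 that did not pass. All these genes were picked for likeness over the same 5 libraries, so fold changes near those of MXD3 and MAX follow from the choice.

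Genes that act with the network were read from 8 lists of 103 genes in all. MYC itself had a log2 fold change of -0.26 (adjusted p 0.0519, edgeR) and lay lower in all 3 USP17 siRNA libraries. It passed in 6 of the 12 alternatives, among them DESeq2's Wald test (adjusted p 0.0363), and its adjusted p ran from 0.00376 to 0.188. Its size moved with the control, from -0.37 without siL2, where it passed, to -0.15 without siNT, where it did not. MGA was at -0.01 and MLXIPL at 0.06. Of 17 MYC cofactors 2 rose and 1 fell. The acetyltransferase gene EP300 rose from 139.4 to 178.6 CPM (log2 fold change 0.36) and EP400, of the TIP60 complex, by 0.28, while the ATPase gene RUVBL1 fell by 0.31. Of 16 genes of MYC protein turnover 3 rose and 1 fell. FBXW7, the ubiquitin ligase subunit that marks MYC for degradation, measured 79.5, 72.5 and 58.6 CPM in siIDT, sino4 and siSMPLT and 50.5 and 44.8 CPM in siL2 and siNT. Its log2 fold change was 0.56 (adjusted p 0.0327, edgeR), and it lost its call without siIDT, sino4 or siNT. FBXO28 (0.54), another ligase subunit, and the deubiquitinase USP37 (0.57) rose too, and SKP2 fell by 0.40.

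Of 17 SIN3 corepressor genes, which serve the MXD proteins and MNT, ARID4B alone rose, by 0.42. Of the 17 fold changes 15 were positive, as were 8285 of 16341 over all tested genes. BRMS1L (0.37) and ING2 (0.25) did not pass. None of the 11 genes of the MGA-containing PRC1.6 complex passed, and RING1, RYBP and CBX1 were at 0.24, 0.20 and 0.16. Medians were 0.11 for the SIN3 list and 0.12 for PRC1.6, against 0.01 for all tested genes. Genes that respond to MondoA or ChREBP split: TXNIP (0.49), an inhibitor of glucose uptake, and PKLR (1.73) rose, while IRS2 (-0.58) and HK2 (-0.48), a hexokinase, fell, in all 4 of 7. TXNIP measured 132.9, 130.9 and 149.4 CPM in siIDT, sino4 and siSMPLT and 89.6 and 106.5 CPM in siL2 and siNT (adjusted p 0.0213, edgeR). ARRDC4, its close relative, was at 0.36 and did not pass (adjusted p 0.0853, edgeR). PKLR rests on 0.17 to 0.80 CPM (adjusted p 0.0489, edgeR), and its call was not followed singly through the alternatives.

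Of 26 E-box genes known to be induced by MYC, 3 fell and none rose, with a median of -0.12. They were ODC1 (-1.03), which starts polyamine synthesis, the chaperonin gene HSPD1 (-0.29) and the serine hydroxymethyltransferase gene SHMT2 (-0.31). ODC1 was called in each of the 12 alternatives. Of 6 genes repressed through MYC and MIZ1, 5 were tested and none passed, with GADD45A at -0.40, CDKN2B at 1.41 and CDKN1C at -0.57. The shares called were 17.6% of cofactors, 25% of turnover genes, 5.88% of the SIN3 list, 57.1% of the 7 MondoA and ChREBP genes and 11.5% of E-box genes, beside 10.5% of all tested genes. The lists were chosen with earlier results of these data known, so these shares are no independent comparison. The number of calls in these lists moved with the libraries used. Over all lists there were 15 calls, which became 2, 1 and 8 when siIDT, sino4 or siSMPLT was left out. Leaving out a control gave more, 23 for siL2 and 18 for siNT. Of the 13 called list genes that the naming rule gives, leaving out siIDT, sino4, siSMPLT, siL2 and siNT ended 11, 12, 6, 0 and 2 calls. The fold changes of these 13 kept their direction in each setting. Without 1 USP17 siRNA library they stayed between 0.824 and 1.2 times their reported log2 values. The range was wider without a control, at 0.756 to 1.31 times without siL2 and 0.67 to 1.26 times without siNT. The log2 fold change of EP300 was 0.34 to 0.39 and that of RUVBL1 -0.32 to -0.30 without 1 USP17 siRNA library.

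**Figure D4:**
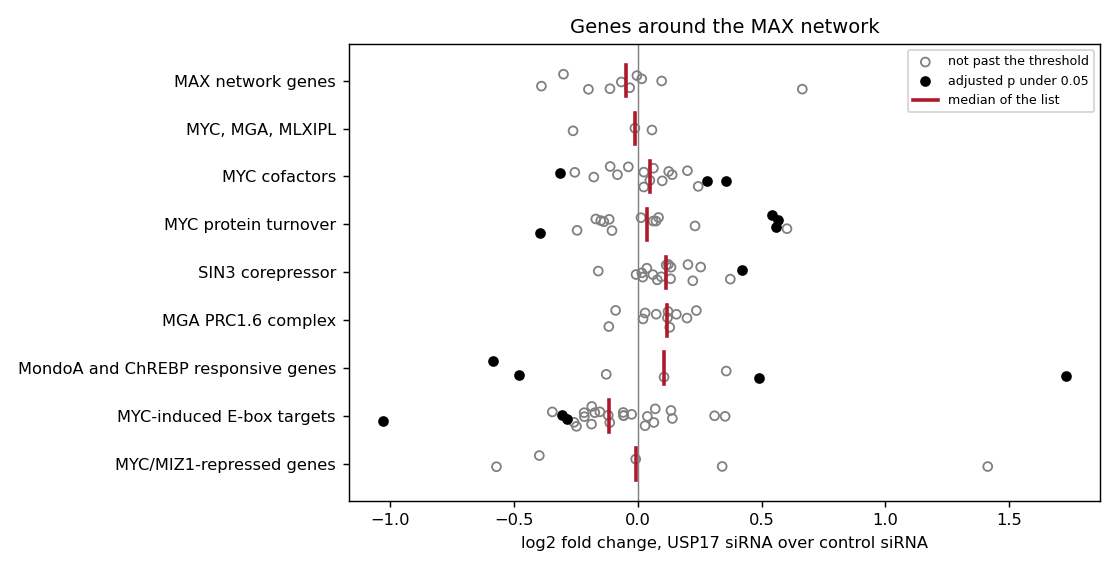
Log2 fold change of each tested gene, USP17 siRNA over control siRNA, in the 10 network genes and in the lists of genes that act with them. Filled points passed an adjusted p of 0.05 and red bars are medians; none of the 10 network genes passed, and ODC1 (-1.03) lies lowest.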

How the data were processed

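The deposited files hold 1 table of read counts and 1 RSEM table for each of 5 libraries. Per the submitters' processing notes, reads were converted with bcl2fastq 2.20, aligned to GRCh38 with STAR 2.7.1a and quantified with RSEM 1.3.2, with annotation release and strand setting not given in the sources used here. Deposited counts are whole reads per gene without regard to strand and on each strand; the own-strand column held 18.7 to 19.9 times the reads of the other and was used. Rows naming no gene (22.8% to 24.4% of reads) were left out. The deposited RSEM tables give expected counts, TPM, FPKM and transcript length in bases, computed by the authors.

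Counts were fitted in R 4.3.3 with edgeR 4.0.16 (filterByExpr with minimum count 10 and minimum total 15, TMM, quasi-likelihood F test, two-sided) over all genes with Benjamini-Hochberg adjustment at 0.05. CPM use TMM-scaled library sizes. SE and unadjusted 95% intervals of log2 fold changes were taken from the F statistic. Alternatives used DESeq2 1.42.0, limma 3.58.1, other filters, RSEM counts rounded to whole numbers, unstranded reads and leaving out each library. Named genes were the 10, MYC, MGA, MLXIPL, TXNIP, ARRDC4 and up to 3 per list with the smallest p. Added to these were the 3 tested genes (log2 CPM at least 1, prior count 2) most like each of the 2 members with the smallest p. SKP2, PKLR, PRELID1, FNTB, RAB24 and SNRNP27 were named after their values were seen. The members and lists were chosen with earlier results of these data known.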

Additional observations from a re-analysis of the deposited data

How the results depend on the processing

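No paired analysis was possible because the labels give no replicate numbers. Genes past the threshold numbered 1710, and 130 to 2633 when 1 library was left out (130 without sino4, 349 without siIDT, 1041 without siSMPLT, 2430 without siL2, 2633 without siNT), with 3074 at an adjusted p of 0.10. Of the 10 genes 0 passed, 2 passed with DESeq2's Wald test and at an adjusted p of 0.10 (where 18.8% of genes did), and 0 to 3 with 1 library left out (MYCL and MXI1 without siL2; MAX, MXD3 and MXI1 without siNT). Genes of the lists numbered 15, 1 to 23 with 1 library left out and 24 at an adjusted p of 0.10. Groups were apart in TPM for 2 of the 10 (43.1% of tested genes) and for 3 to 6 with 1 library left out. In RSEM length they were apart for 1 (19% of tested genes) and for 2 to 5. Smaller groups overlap less by construction. The shares of all genes with 1 library left out were not counted, so the larger counts cannot be set against them. The sign turned for MYCN without siNT (0.23; -0.53 to 0.23 with 1 library left out), for MXD1 with RSEM (-0.0015), without siIDT (-0.0283) and without siNT (-0.18; to 0.24), for MXD4 without siL2 (0.12; from -0.23), for MXI1 without siL2 (-0.33; to 0.70) and for MNT without siIDT (0.00294; from -0.10). It also turned for MLX with the filter at a log2 CPM of 1 (0.00461), without siIDT (0.00659) and without siNT (0.023; from -0.0317), for MGA without siIDT (0.0251), sino4 (0.0105) or siNT (0.0455; from -0.0738) and for MLXIPL without siL2 (-0.0762; to 0.203). Of 120 values of the 10 genes over these settings, 104 kept direction and side of the threshold, 10 turned (1 of these, MXI1 without siL2, also passed) and 6 others passed that had not. SHMT2 lost its call in 6 of 12 alternatives: with RSEM counts, without a filter, and without siIDT, sino4, siSMPLT or siNT. The lookups of RSEM length and of the controls in other units were added after seeing the data. Except for smaller groups and changed thresholds, the cause was not tested. MYCN and MYCL had the fewest reads of the 10, at 118 to 246 per library. The SE of their log2 fold changes was 0.22 and 0.20, and that of MXI1, with 2393 to 5039 reads, was 0.24. The part of depth in their spread was not tested.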
